A study of Sus scrofa domesticus with 28 samples.

Results

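The 4 genes described here are the pig matrix metalloproteinases MMP14 and MMP11 and the tissue inhibitors of metalloproteinases TIMP1 and TIMP2. They were found by matching the accession of each array probe to RefSeq pig transcripts, which gave 6 probes out of 43603: 1 each for MMP14, MMP11 and TIMP2, and 3 for TIMP1. The genes are 4 of 18765 features (genes, or transcripts without a gene symbol) that were measured well enough to be tested. Skin was sampled in 2 pigs of the red Duroc breed, whose deep wounds heal with thick and often discoloured scars and serve as a model of human hypertrophic scar. Each of the 28 biopsies was set against the same universal pig reference RNA on a 2-colour array. The pigs were juvenile castrated males, numbered 49 and 50 in the labels, and both gave biopsies to every group.

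Scar biopsies were labelled by phase (early, mid or late), by pigmentation (hyper for darkened and hypo for pale scar) and by whether the scar had been under pressure or sham treatment. Early scar comprised 4 hyper and 4 hypo biopsies, all sham. Mid and late scar each comprised 8 biopsies, 2 in each combination of pressure or sham with hyper or hypo. The controls were 4 biopsies of control skin with the title code BL, 1 from each side of each animal. Every mid and late pressure biopsy came from the right side and every mid and late sham biopsy from the left, so pressure and side cannot be told apart. All hyper biopsies carried the title code a1 and all hypo biopsies a3, whose meaning was not given, so pigmentation and this code cannot be told apart. The labels do not say whether biopsies of 1 animal came from separate wounds, so the p values measure the spread between biopsies of the same 2 animals.

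Matrix metalloproteinases are zinc-dependent enzymes that cut collagens and other proteins of the extracellular matrix. MMP14 is anchored in the cell membrane, cleaves fibrillar collagen at the cell surface and activates the secreted gelatinase MMP2. MMP11, or stromelysin-3, is made mainly by stromal cells, is activated inside the cell and cuts fibrillar collagens poorly. TIMP1 and TIMP2 are secreted proteins that block the catalytic site of these enzymes. TIMP1 is a weak inhibitor of membrane-anchored enzymes such as MMP14, whereas TIMP2 inhibits MMP14 and at low amounts also bridges it to pro-MMP2, which MMP14 complexes then activate. In healing skin these genes are active in fibroblasts and other cells of the granulation tissue, and the balance of enzymes and inhibitors shapes how much matrix is kept.

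Levels are given as log2 ratios of biopsy to reference RNA, so that a step of 1 is a doubling and a value is comparable between biopsies for 1 probe but not between probes. The biopsy signals of MMP14, TIMP1 and TIMP2 were well above background on all 28 arrays, and that of MMP11 on 27, missing only on 1 of the 4 control arrays. None of the member probes was saturated. After normalisation between arrays, the reference signal varied little on these probes, with an SD over arrays of 0.19 to 0.38 log2 units. TIMP1 is represented by its brightest probe. The scanner program flagged that probe as an outlier on 1 early hypo array (animal 50, left side), and the MMP14 probe on 1 late sham hypo array (animal 49), so TIMP1 rests on 7 early and MMP14 on 7 late arrays. Between 13707 and 24298 of the 43603 probes were well above background on an array, fewest in late sham hypo and late pressure hypo scar of animal 50.

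In early scar both proteases and both inhibitors were far above their levels in control skin. MMP14 lay between 2.98 and 4.65 with a median of 3.72 over 8 early scars, against -0.11, -0.09, 0.62 and 0.74 in control skin. MMP11 had a lowest value of 1.93, a median of 2.57 and a highest of 3.53 in early scar, against -0.67, -0.18, -0.07 and 0.16 in control skin. No early scar overlapped the controls for either protease. TIMP1 ranged from 1.90 to 2.27 in 7 early scars, with a median of 2.01, against -0.17, 0.10, 0.34 and 0.43 in control skin. TIMP2 ranged from 2.22 to 3.55 in 8 early scars, with a median of 2.82, against 0.54, 0.94, 0.95 and 1.05 in control skin. The inhibitors were separated from the controls as well. TIMP1 had the smallest SD of the 4 genes in early scar, at 0.13 log2 units over 7 arrays. Over 8 arrays the SD was 0.41 for TIMP2, 0.62 for MMP11 and 0.65 for MMP14. The array without a TIMP1 value had the lowest MMP14 (2.98) and TIMP2 (2.22) of early scar, so these SDs are not like for like.

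In a limma fit over all arrays the early differences were 3.56 ± 0.41 log2 units (SE, 11.8-fold) for MMP14, 2.85 ± 0.36 (7.23-fold) for MMP11, 1.85 ± 0.29 (3.60-fold) for TIMP1 and 2.04 ± 0.26 (4.11-fold) for TIMP2. All 4 passed, with adjusted p from 3.07e-06 for MMP14 to 7.12e-05 for TIMP1 (Benjamini-Hochberg over 18765 features, threshold 0.05). Of all features, 24.1% were called higher in early scar and 14.7% lower, and 15.9% were higher in every early scar than in every control, as the 4 genes were. In whole-tissue RNA, more cells of a type and more RNA per cell cannot be told apart. The size for MMP11 depended on the processing, at 1.76 without the cap on the background and 4.05 in the authors' value table. The other 2 TIMP1 probes differed by 1.51 ± 0.29 and 1.48 ± 0.29, and the 3 probes correlated over the arrays with r of 0.93 to 0.97. On the 2 slides that held both early scar and control skin, MMP14 differed by 4.13 and 4.5, MMP11 by 2.94 and 4.06, TIMP1 by 2.13 and 2.17, and TIMP2 by 2.29 and 2.41. After normalisation between arrays, the biopsy signal of MMP14 averaged 15.72 log2 intensity units in early scar and 12.25 in control skin. This signal was rebuilt from the same normalised ratio, so it is no separate check.

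**Figure D1:**
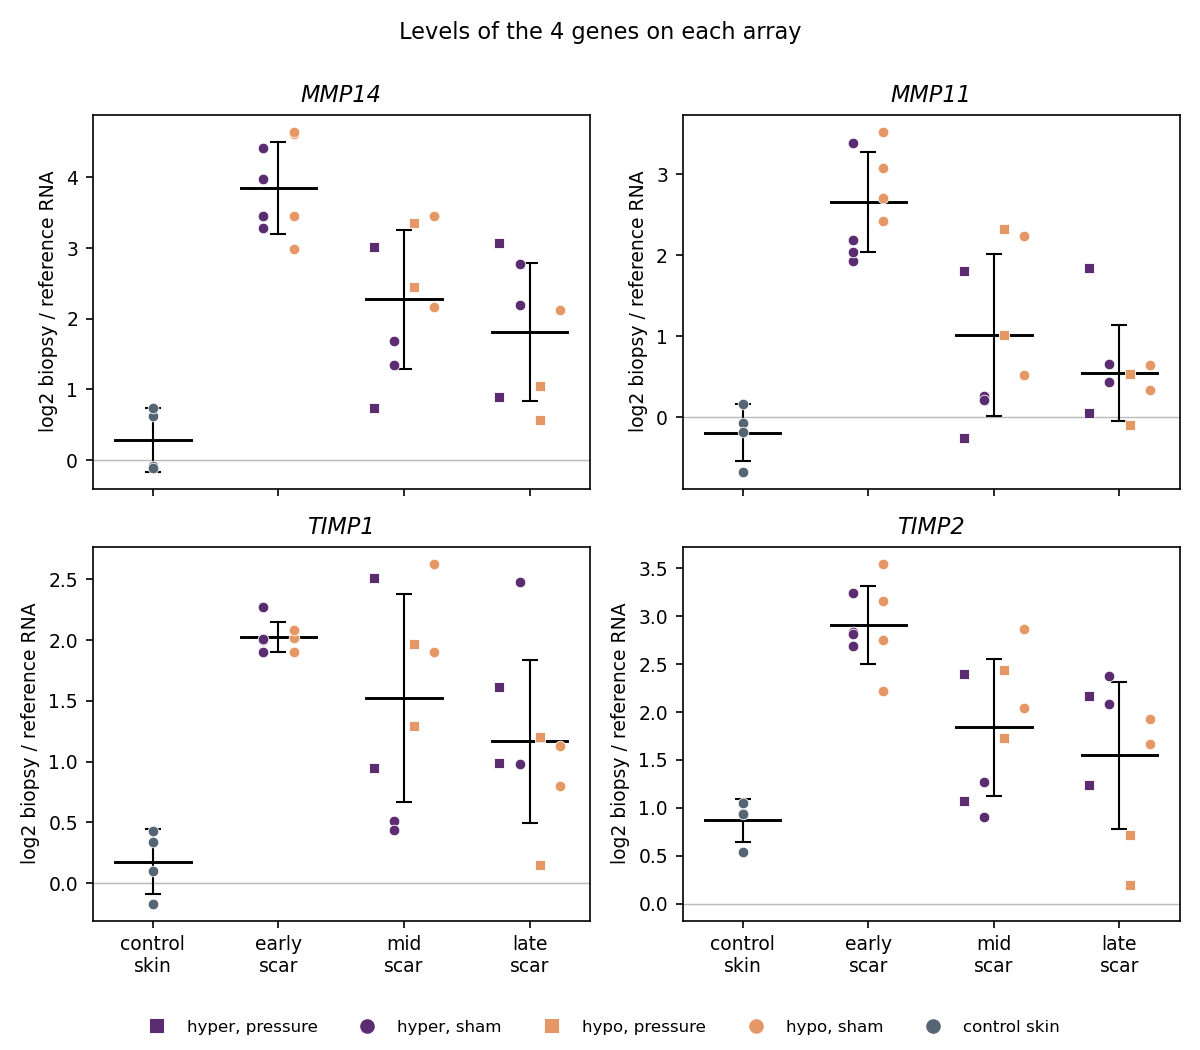
Log2 ratio of biopsy to reference RNA on each array (vertical axis) for MMP14, MMP11, TIMP1 and TIMP2 by phase (horizontal axis); colour gives pigmentation, squares are pressure and circles sham biopsies, and black lines are the phase mean and SD. All early scars lie above all controls in each panel (MMP14 from 2.98, against at most 0.74), while mid and late scars spread from the control level into the early range for MMP14, and TIMP1 reaches 2.63 in mid scar, above the highest early scar at 2.27.

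In mid scar the levels lay between those of early scar and control skin, and some biopsies were back at the control level. MMP14 ranged from 0.73 to 3.46 (median 2.30, n = 8), MMP11 from -0.26 to 2.33 (median 0.77), TIMP1 from 0.44 to 2.63 (median 1.59) and TIMP2 from 0.90 to 2.87 (median 1.89). For MMP14, MMP11 and TIMP2, 7 of the 8 mid scars were above every control. For TIMP1 all 8 were, by as little as 0.44 against 0.43, and 7.32% of all features showed such a separation. The lowest mid scar was the pressure hyper biopsy of animal 49 for MMP14 and MMP11, and a sham hyper biopsy for TIMP1 (animal 50) and TIMP2 (animal 49).

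The fitted differences of mid scar from control skin were 1.98 ± 0.41 for MMP14 (adjusted p = 0.0014), 1.21 ± 0.36 for MMP11 (adjusted p = 0.0152), 1.35 ± 0.29 for TIMP1 (adjusted p = 0.00163) and 0.97 ± 0.26 for TIMP2 (adjusted p = 0.00722). All 4 genes were thus called higher (limma), against 22.1% of all features, with folds of 3.96, 2.31, 2.55 and 1.96 in the same order. The MMP11 call was lost without the control biopsy of animal 50 from the left side (1.12 ± 0.41, limma adjusted p = 0.0606), and it rested on the pressure biopsies as well: in sham biopsies alone it was 1.0 ± 0.42 (limma adjusted p = 0.0842). When each array was centred on its median in place of loess, TIMP1 fell short at 0.79 (limma adjusted p = 0.15) and TIMP2 at 0.52 (adjusted p = 0.207).

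Late scar had higher MMP14, TIMP1 and TIMP2 than control skin, with a wide spread between biopsies that reached the control level. TIMP1 and TIMP2 changed sign, however, when arrays were centred on their median in place of loess. MMP14 ranged from 0.56 to 3.07 over 7 late scars (median 2.12), and 6 of them were above all controls. MMP11 ranged from -0.10 to 1.85 over 8 late scars (median 0.48), also with 6 above all controls. TIMP1 ranged from 0.15 to 2.48 (median 1.06), with 7 of 8 above all controls. TIMP2 ranged from 0.20 to 2.38 (median 1.80), with 6 of 8 above all controls and 1, the pressure hypo scar of animal 49, below them all. No gene was above the controls in every late scar, as 9.79% of all features were. The pressure hypo scar of animal 49 was the lowest late scar for every one of the 4 genes, at 0.56 for MMP14, -0.10 for MMP11, 0.15 for TIMP1 and 0.20 for TIMP2.

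The late differences were 1.5 ± 0.43 for MMP14 (2.82-fold, adjusted p = 0.00988, 7 late arrays), 0.99 ± 0.29 for TIMP1 (1.99-fold, adjusted p = 0.0098) and 0.68 ± 0.26 for TIMP2 (1.60-fold, adjusted p = 0.0431), all by limma. MMP11 differed by 0.74 ± 0.36 and missed the threshold (adjusted p = 0.112). Thus 3 of 4 genes were called higher, against 26.3% of all features. Leaving out 1 array at a time ended the TIMP2 call in 8 of 12 fits, and without the control biopsy of animal 50 from the left side none of the 4 passed: MMP14 was 1.26, TIMP1 0.87 and TIMP2 0.54, with adjusted p of 0.0543, 0.0503 and 0.17. With median centring the late differences were -0.04 for TIMP1, -0.10 for TIMP2 and 0.33 for MMP14. The other 2 TIMP1 probes were at 0.60 and 0.63 in late scar and did not pass (limma adjusted p = 0.112 and 0.087). Within the slides that held both, late scar minus control was 1.0 and 1.14 for MMP14, 0.42 to 1.16 for TIMP1 and -0.23 to 0.93 for TIMP2.

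Median centring also turned the balance of calls over all features. In early scar it called 2863 features higher and 3155 lower, against 4526 and 2766 with loess. In mid scar it called 1515 higher and 3716 lower, against 4153 and 2187, and in late scar 1403 and 5664, against 4944 and 2514. The early differences of the 4 genes stayed called under this centring, as under each other alternative that gave a value.

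**Figure D2:**
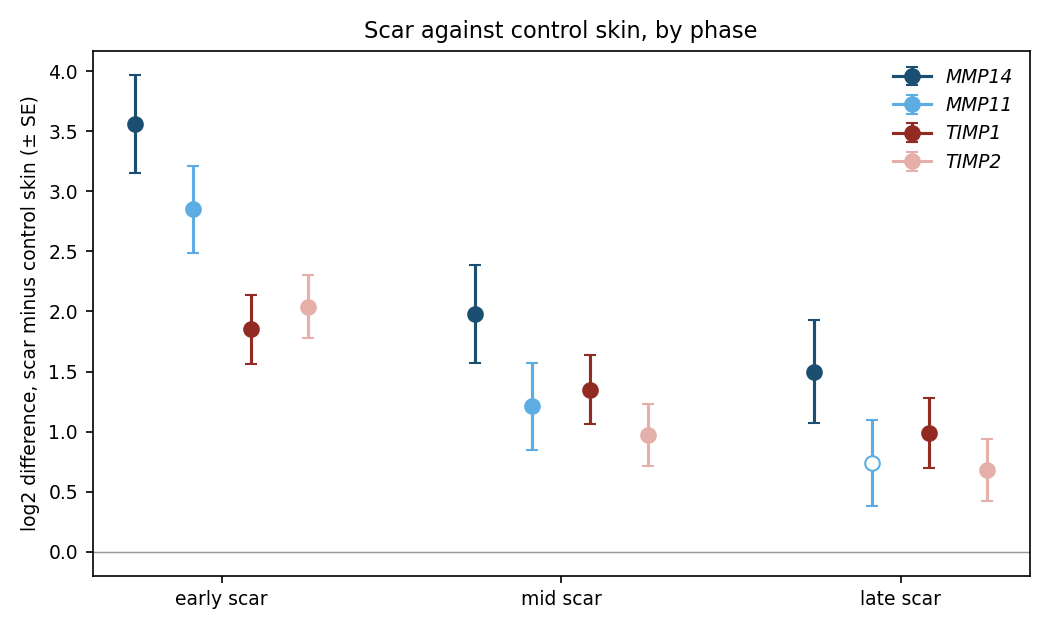
Fitted log2 difference of scar minus control skin with its SE (vertical axis) for the 4 genes in early, mid and late scar; filled points passed an adjusted p of 0.05 and open points did not. MMP14 is the highest point in each phase (3.56, 1.98 and 1.5), and MMP11 in late scar (0.74) is the only open point; the late TIMP1 and TIMP2 points changed sign with median centring.

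Among sham biopsies, which were taken in all phases, 3 of the 4 genes were lower in mid than in early scar. Mid sham scars had MMP14 levels of 1.35, 1.68, 2.16 and 3.46, and 3 of them lay below every early scar. MMP11 was at 0.21, 0.26, 0.52 and 2.24 and TIMP2 at 0.90, 1.27, 2.04 and 2.87, each again with 3 of 4 below every early scar. TIMP1 was at 0.44, 0.51, 1.90 and 2.63, so that 2 mid scars were well below the early range and 1 above it.

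The limma differences of mid sham from early sham scar were -1.69 ± 0.41 for MMP14 (adjusted p = 0.0217), -1.86 ± 0.36 for MMP11 (adjusted p = 0.00802), -1.14 ± 0.26 for TIMP2 (adjusted p = 0.0143) and -0.65 ± 0.29 for TIMP1 (adjusted p = 0.188). Of all features 4.26% were called lower here. Without any 1 of 3 mid sham biopsies (hyper of either animal, or hypo of animal 49), 0 to 1 of the 4 genes passed, and in animal 50 alone none did.

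Late sham scars showed the same 3 genes below early scar. MMP11 was at 0.34, 0.43, 0.64 and 0.66 in the late sham scars, all far under the lowest early scar, and differed by -2.15 ± 0.36 (limma adjusted p = 0.001, 4.43-fold lower). MMP14 was at 2.12, 2.20 and 2.77, also all below the early range, and differed by -1.67 ± 0.49 (limma adjusted p = 0.0223). TIMP2 was at 1.67, 1.93, 2.08 and 2.38 and differed by -0.89 ± 0.26 (limma adjusted p = 0.0207), with 3 of 4 below the early range. TIMP1 was at 0.80, 0.98, 1.13 and 2.48 and differed by -0.67 ± 0.29 (limma adjusted p = 0.106).

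Of all features 10.3% were called lower in late than in early sham scar, and 6.75% were lower in every late sham scar than in every early one, as MMP11 and MMP14 were. MMP11 passed in each of 12 fits that left out 1 array, with differences of -2.25 to -2.0, but not without the cap on the background (-1.28, limma adjusted p = 0.191), where none of the 4 genes did. Leaving out the late sham hyper or the late sham hypo biopsy of animal 50 left 1 gene called. Without the late sham hyper biopsy of animal 49, which had the highest TIMP1, TIMP1 passed (-1.1, limma adjusted p = 0.0188) and MMP14 did not (-1.65, adjusted p = 0.0545). Whether MMP11 changed more than TIMP1 was not tested.

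Late and mid scar, pooled over sham and pressure, did not differ beyond the spread for any of the 4 genes. The differences were -0.49 ± 0.36 for MMP14, -0.47 ± 0.30 for MMP11, -0.36 ± 0.23 for TIMP1 and -0.29 ± 0.21 for TIMP2, with limma adjusted p of 0.55 to 0.614. None had an unadjusted p under 0.05, against 11.5% of all features, and 0.00533% of all features were called higher and 0% lower.

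The protease to inhibitor balance was computed on each array as the log2 level of a protease minus that of an inhibitor, with the mean of the controls set to 0. It is described without a test, since its parts were chosen with their levels known. The mean of the 2 proteases minus the mean of the 2 inhibitors was 1.27 ± 0.45 in early scar (SD, n = 7), 0.43 ± 0.57 in mid scar (n = 8) and 0.31 ± 0.56 in late scar (n = 7), against an SD of 0.30 around 0 in control skin (n = 4). All 7 early scars, at 0.73 to 1.79, were above the highest control at 0.23. Mid scars ran from -0.52 to 1.11 and late scars from -0.64 to 1.05, on both sides of the control level.

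The balance differed by pair. MMP14 minus TIMP2, the enzyme and the inhibitor that form a complex at the cell surface, was 1.52 ± 0.32 in early scar (n = 8), 1.01 ± 0.39 in mid scar (n = 8) and 0.90 ± 0.45 in late scar (n = 7). Its lowest mid and late values, 0.24 and 0.23, were within the control range, whose highest value was 0.27. MMP14 minus TIMP1 was 1.84 ± 0.58 in early (n = 7), 0.63 ± 0.75 in mid and 0.47 ± 0.84 in late scar.

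For MMP11 the balance averaged near the control level after the early phase, but its probe was dim in control skin. There its normalised biopsy signal averaged 6.75 log2 intensity units, against 11.55 for the TIMP1 probe. In the authors' table late MMP11 was 1.49 above control skin, against 0.74 in the main fit. The part of the dim signal in the balance was not tested. MMP11 minus TIMP1 was 1.0 ± 0.61 in early scar (n = 7), -0.14 ± 0.82 in mid scar (n = 8) and -0.25 ± 0.67 in late scar (n = 8). MMP11 minus TIMP2 was 0.82 ± 0.46, 0.24 ± 0.45 and 0.07 ± 0.66 in the same phases (n = 8 each). The lowest MMP11 minus TIMP1 values were -1.74 in the mid sham hypo and -1.69 in the late sham hyper biopsy, both of animal 49 and both with the highest TIMP1 of their phase.

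Over all phases the mean protease minus inhibitor balance was 0.54 ± 0.65 in hyper (SD, n = 12) and 0.81 ± 0.69 in hypo scar (n = 10). These SDs include the differences between phases, so they do not gauge this gap, which was not tested. In late scar MMP11 minus TIMP2 was 0.57 ± 0.47 under pressure (n = 4), at -0.13 to 0.88, and -0.43 ± 0.38 in sham scar (n = 4), at -0.89 to 0.04, so the groups overlapped.

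**Figure D3:**
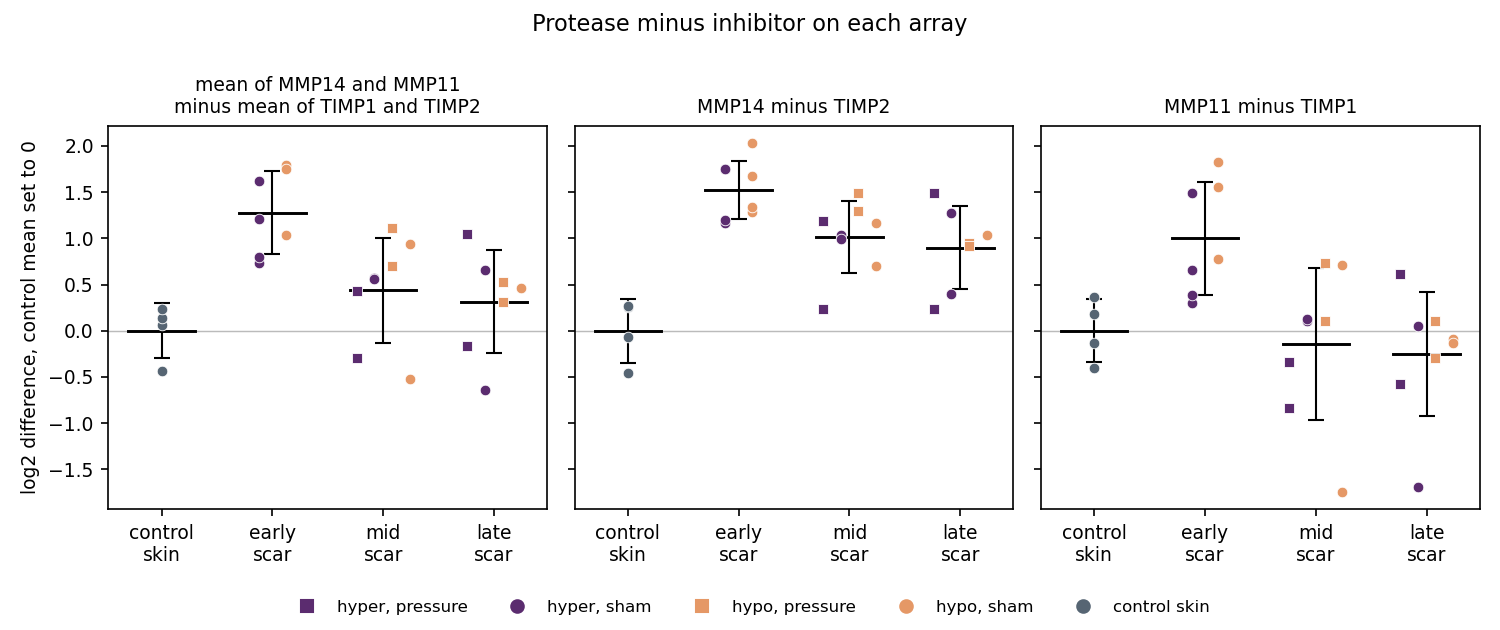
Protease minus inhibitor log2 level on each array (vertical axis, control mean set to 0) by phase for the mean of both proteases minus both inhibitors, for MMP14 minus TIMP2 and for MMP11 minus TIMP1; black lines are the phase mean and SD. Early scars lie above 0 in all 3 panels (means 1.27, 1.52 and 1.0), while mid and late scars lie above 0 throughout for MMP14 minus TIMP2 (means 1.01 and 0.90) and on both sides of 0 in the other panels.

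Within each phase the 4 genes varied together to different degrees over biopsies, which share 2 animals and, in mid and late scar, mix the treatments. MMP14 and TIMP2 had Pearson's r of 0.92 in early (n = 8), 0.94 in mid (n = 8) and 0.89 in late scar (n = 7), and Spearman's rho of 0.95, 0.95 and 0.86. MMP14 and MMP11 had r of 0.74, 0.97 and 0.81 in the same phases. MMP14 and TIMP1 had r of 0.20, 0.67 and 0.55, so TIMP1 followed the protease least closely. TIMP1 and TIMP2, the 2 inhibitors, had r of 0.43, 0.81 and 0.70. All values on 1 array share its RNA, labelling and normalisation.

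Hyper and hypo scar were compared to ask whether discoloured scar tissue differs by its pigmentation. Over all phases the 4 genes showed no difference beyond the spread: hyper minus hypo was -0.13 ± 0.30 for MMP14, -0.36 ± 0.25 for MMP11, -0.05 ± 0.20 for TIMP1 and -0.01 ± 0.18 for TIMP2 (each limma adjusted p = 0.999). None passed at an unadjusted p under 0.05 either, against 3.1% of all features. With the adjusted threshold 0.0107% of all features were called higher and 0% lower.

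In early scar the groups overlapped for all 4 genes. MMP14 was at 3.28, 3.46, 3.98 and 4.41 in hyper scar and at 2.98, 3.45, 4.61 and 4.65 in hypo scar. MMP11 was at 1.93, 2.04, 2.19 and 3.39 in hyper scar and at 2.43, 2.71, 3.08 and 3.53 in hypo scar, and its difference of -0.55 ± 0.42 was the largest of the 4. TIMP1 differed by 0.04 ± 0.35 and TIMP2 by -0.02 ± 0.30. The limma adjusted p was 0.998 for each, and 0% of all features were called higher or lower. No gene had an unadjusted p under 0.05, against 4.62% of all features.

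In mid scar all 4 genes were lower in hyper than in hypo scar by 0.85 to 1.16 log2 units, without passing the adjusted threshold. MMP14 was at 0.73 and 3.01 (pressure) and 1.35 and 1.68 (sham) in hyper scar, and at 2.45 and 3.35 (pressure) and 2.16 and 3.46 (sham) in hypo scar. TIMP1 was at 0.95 and 2.51 (pressure) and 0.44 and 0.51 (sham) in hyper scar, and at 1.29 and 1.97 (pressure) and 1.90 and 2.63 (sham) in hypo scar. For each of the 4 genes 3 of the 4 hyper scars were below every hypo scar, and the pressure hyper biopsy of animal 50 was not. The differences were -1.16 ± 0.48 for MMP14, -1.03 ± 0.42 for MMP11, -0.85 ± 0.33 for TIMP1 and -0.86 ± 0.30 for TIMP2 (each limma adjusted p = 0.52). All 4 had an unadjusted p under 0.05, as had 9.4% of all features, and 0% of all features passed after adjustment. The mean log2 level of 18 skeletal muscle genes was also taken, with each gene centred on its own median over the arrays. It was 4.2 in the pressure hyper biopsy of animal 49, the lowest mid scar for both proteases. In the other mid scars it was -0.62 to 0.87. For these muscle genes, the sham hyper biopsies with the lowest mid TIMP1 and TIMP2 were at 0.73 and 0.46. The part of muscle in the values of the 4 genes was not tested.

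In late scar the order was turned round, again short of the threshold. TIMP2 was at 1.24 and 2.17 (pressure) and 2.08 and 2.38 (sham) in hyper scar, and at 0.20 and 0.72 (pressure) and 1.67 and 1.93 (sham) in hypo scar, so that 3 of 4 hyper scars were above every hypo scar. MMP14 was at 0.89 and 3.07 (pressure) and 2.20 and 2.77 (sham) in hyper scar, and at 0.56 and 1.05 (pressure) and 2.12 (sham) in hypo scar. MMP11 overlapped, at 0.05, 0.43, 0.66 and 1.85 in hyper scar and at -0.10, 0.34, 0.53 and 0.64 in hypo scar. The differences were 0.84 ± 0.30 for TIMP2 (limma adjusted p = 0.108), 0.69 ± 0.33 for TIMP1 (0.235), 0.89 ± 0.54 for MMP14 (0.357) and 0.39 ± 0.42 for MMP11 (0.628). TIMP2 alone had an unadjusted p under 0.05, against 21.3% of all features.

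Among all features 0.512% were called higher and 4.52% lower in late hyper scar. With median centring MMP14 (2.26), TIMP1 (1.8) and TIMP2 (1.47) passed, and the calls over all features turned to 2252 higher and 47 lower. Of the probes, 40.0 to 47.1% were well above background in late hyper scar and 31.4 to 41.2% in late hypo scar; the part of this in the late values was not tested.

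Biopsies were also paired by animal, side and phase, 1 hyper with 1 hypo, although the labels do not tie both biopsies to the same scar. The number in the sample titles, whose unit is not stated, differed within several mid and late pairs. In the mid sham pair of animal 49 it was 91 for the hyper and 98 for the hypo biopsy. TIMP2 was higher in the hyper biopsy in 4 of 4 late pairs, by 0.41 to 1.45. In mid scar it was lower in 3 of 4 pairs, by 1.14 to 1.59, and higher by 0.67 in the other. MMP11 was higher in 4 of 4 late pairs, by 0.02 to 1.32, and lower in 3 of 4 mid pairs. MMP14 was higher in 3 of 3 late pairs and lower in 3 of 4 mid pairs. TIMP1 was higher in 3 of 4 late pairs and lower in 3 of 4 mid pairs.

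The change of the hyper minus hypo difference between late and mid scar was tested after these values had been seen. It was 1.7 ± 0.42 for TIMP2 (limma adjusted p = 0.0192), 1.54 ± 0.47 for TIMP1 (adjusted p = 0.0506), 2.05 ± 0.72 for MMP14 (adjusted p = 0.0871) and 1.42 ± 0.60 for MMP11 (adjusted p = 0.147). The TIMP2 call was lost in animal 50 alone (1.39) and without any 1 of 5 arrays. The other 2 TIMP1 probes passed, at 2.03 ± 0.48 and 1.64 ± 0.47 (limma adjusted p = 0.0154 and 0.0358), so the TIMP1 miss depended on the probe. With the brightest TIMP1 probe 1 of 4 genes was called, against 1.48% of all features called higher and 6.12% lower. From early to late sham scar the same difference changed by 0.46 to 0.75, with limma adjusted p of 0.743 to 0.853 and no unadjusted p under 0.05 (9.63% of all features).

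**Figure D4:**
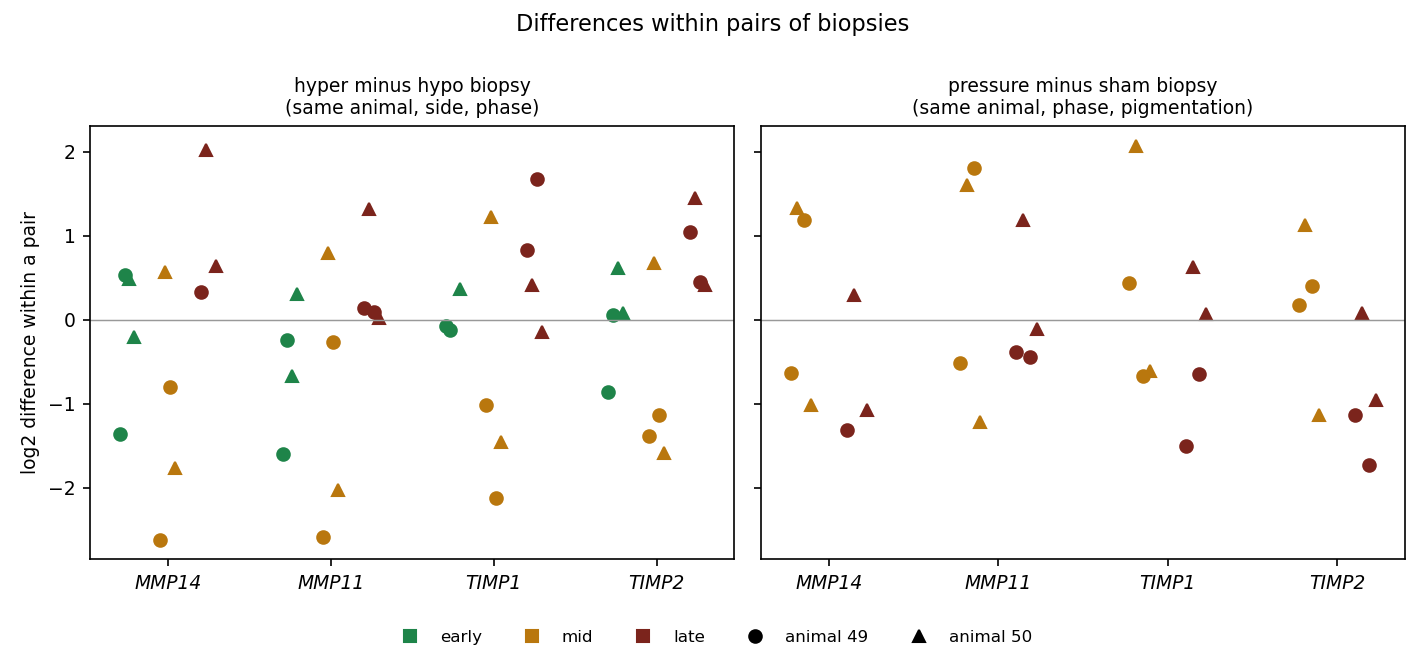
Log2 differences within pairs of biopsies (vertical axis) for each gene: hyper minus hypo biopsies matched by animal, side and phase (left) and pressure minus sham biopsies matched by animal, phase and pigmentation (right); colour gives the phase and shape the animal. In the left panel 3 of 4 mid pairs lie below 0 for each gene and late pairs lie mostly above, and in the right panel late TIMP2 pairs lie at -1.73 to 0.08. The number in the sample titles was not matched and differed within several mid and late pairs of both panels.

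Pressure was compared with sham treatment to ask whether compression alters the scar. For none of the 4 genes did the groups differ beyond the spread over mid and late scar together. Pressure minus sham was -0.28 ± 0.36 for MMP14, 0.24 ± 0.30 for MMP11, -0.03 ± 0.23 for TIMP1 and -0.40 ± 0.21 for TIMP2 (limma adjusted p of 0.905 to 0.994). No gene had an unadjusted p under 0.05, against 5.11% of all features, and 0% of all features were called higher or lower.

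In mid scar the 4 differences were 0.14 to 0.42 (limma adjusted p = 0.999), with no unadjusted p under 0.05 (4.54% of all features). In late scar TIMP2 was at 0.20, 0.72, 1.24 and 2.17 in pressure scars and at 1.67, 1.93, 2.08 and 2.38 in sham scars. Thus 3 of 4 pressure scars were below every sham scar, and the difference was -0.93 ± 0.30 with an unadjusted p of 0.00522 (5.65% of all features had one under 0.05) and a limma adjusted p of 0.865. The late differences were -0.79 ± 0.54 for MMP14, -0.36 ± 0.33 for TIMP1 and 0.07 ± 0.42 for MMP11. The change of the pressure difference from mid to late scar was -1.08 ± 0.42 for TIMP2 (unadjusted p = 0.0192, limma adjusted p = 0.974). It alone of the 4 had an unadjusted p under 0.05, against 4.67% of all features. In animal 49 alone, a fit with 1 biopsy in each of these groups, the late differences were -1.07 for TIMP1 and -1.44 for TIMP2.

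The pressure difference did not differ between hyper and hypo scar beyond the spread. Hyper minus hypo was 0.41 to 0.91 for the 4 genes with limma adjusted p of 0.252 to 0.796. TIMP2 alone had an unadjusted p under 0.05 (0.0426), against 18.6% of all features.

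Several lists of cell type markers also differed between scar and control skin, some to a like degree in each phase. Of all features, 24.1%, 22.1% and 26.3% were called higher than in control skin in early, mid and late scar. In the same phases 2766, 2187 and 2514 of 18765 features were called lower. Of 5 myofibroblast and smooth muscle markers, 1 was called higher and 1 lower in each phase. T and NK cell markers were called higher for 0 of 6 genes in early, 3 in mid and 4 in late scar, and for 0 in each phase with median centring. Fibroblast markers, with COL1A2, DCN and LUM well above background on all 28 arrays, were called higher for 6 of 6 measured genes in early scar (median difference 2.27, against 0.11 over all features), 4 of 6 in mid scar and 2 of 6 in late scar. With median centring 6, 3 and 1 of them were called higher. For mean levels of markers, the median of each gene over the 28 arrays was set to 0, so 0 is not the reference RNA. The mean level of the fibroblast markers was 0.24 to 1.46 in early scar, -0.70 to 0.42 in mid scar and -1.10 to 0.54 in late scar. In control skin it was -1.90 to -0.80. Macrophage and dendritic cell markers were called higher for 8 of 11 genes in early scar, 8 in mid scar and 5 in late scar, but for 2, 0 and 0 with median centring. Their mean level was -0.58 to 1.08 in early, -0.44 to 1.37 in mid and -0.71 to 1.44 in late scar, against -1.40 to -0.44 in control skin. Only 3 of 13 listed keratinocyte and 3 of 11 listed hair and gland markers could be tested. The keratinocyte markers were called lower for 3 genes in early, 2 in mid and 3 in late scar. The hair and gland markers were called lower for 3 of 3 genes in each phase. Of these, KRT31 was well above background on 5 arrays, 4 of them of control skin. It thus entered the test through control skin, and its lower calls are no support. Endothelial markers were called higher for 6 of 7 genes in early, 6 in mid and 7 in late scar (5, 5 and 2 with median centring). Adipocyte markers were called lower for 7, 6 and 4 of 9 genes in the same phases, and melanocyte markers for 6 of 10 genes in each. Markers of skeletal muscle were at 5.02 in the late pressure hyper biopsy of animal 49, where MMP14 was at 0.89. They were at 2.92 in the early hypo biopsy of animal 50 from the left side. That biopsy had the lowest MMP14 and TIMP2 of early scar, but its MMP11 (2.71) was above the early median (2.57). Other biopsies went the other way. Muscle markers were at 0.07 in the late pressure hypo biopsy of animal 49, the lowest late scar for all 4 genes. They were at 1.79 in its late sham hyper biopsy, which had the highest late TIMP1 (2.48) and TIMP2 (2.38). In control skin they were at -0.66 to -0.47. The part of these cell types in the levels of the 4 genes was not tested.

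Of the other matrix metalloproteinases, 7 of 21 listed had probes and 3 could be tested. MMP2, the gelatinase that MMP14 activates, rose in early scar by 1.84 ± 0.33 (limma adjusted p = 0.000196), in mid scar by 1.02 ± 0.33 (0.0217) and in late scar by 0.88 ± 0.33 (0.038), where it was -0.18 with median centring. It ranged from 1.89 to 3.02 in early scar, from 0.97 to 2.17 in mid scar and from 0.51 to 2.43 in late scar, against 0.09 to 1.17 in control skin. MMP9, a gelatinase of neutrophils and macrophages, was called in late scar alone (1.66 ± 0.61, limma adjusted p = 0.0356), where it ranged from -0.06 to 4.02, and its calls in the 3 phases were not compared with each other. That call was lost in 14 of 26 alternatives, among them 8 of 12 fits without 1 array, with adjusted p up to 0.375. MMP12, the macrophage elastase, did not pass in any phase. MMP1, MMP3, MMP17 and MMP20 were well above background on 0 to 2 arrays. None of the 10 other inhibitors listed had a named probe.

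Of 12 listed genes that activate or partner these enzymes, 5 were measured. All 5 were called higher in early scar, 5 in mid and 3 in late scar, with median differences of 0.95, 0.75 and 0.91, against 2.45, 1.28 and 0.87 for the 4 genes. The early call of CAV1, which encodes the membrane protein caveolin-1 (0.68 ± 0.26, limma adjusted p = 0.0417), was lost in 13 of 25 alternatives, and its mid call (0.75 ± 0.26) in 13 of 26. ITGB1, an integrin chain that binds collagen, rose by 2.35 ± 0.18 in early scar (limma adjusted p = 1.85e-08), and by 1.72 ± 0.18 in mid and 1.1 ± 0.18 in late scar. ITGAV, the alpha V integrin chain, rose by 1.42 ± 0.24, and BSG, the membrane protein basigin known as an inducer of metalloproteinases, by 0.95 ± 0.14 in early scar. ITGB3, an integrin chain that pairs with ITGAV, rose by 0.94 ± 0.20 in early scar. With median centring 3, 1 and 0 of the 5 were called in early, mid and late scar, and the mid (-0.14) and late (-0.22) differences of ITGB3 changed sign.

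Of the list for the plasmin system, which can activate secreted metalloproteinases, 3 of 6 measured genes rose in early scar. They were the urokinase gene PLAU (1.30 ± 0.27, limma adjusted p = 0.000711), the tissue plasminogen activator gene PLAT (1.13 ± 0.40, adjusted p = 0.0302) and SERPINF1 (1.44 ± 0.35, adjusted p = 0.00291). SERPINF1 encodes an anti-angiogenic serpin that inhibits no protease and is not a plasmin regulator, so 2 of the 5 other genes rose. The PLAT call was lost in 10 of 25 alternatives, among them 5 of 12 fits without 1 array. In mid scar 1 and in late scar 2 of the 6 were called higher, near the 22.1% and 26.3% of all features. With median centring none was called higher in either phase.

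Of the cathepsins and cystatins 3 of 8 rose and 1 fell in early scar. CTSK, a collagen-degrading cysteine protease, rose by 2.38 ± 0.44, CTSH by 1.78 ± 0.40 and the inhibitor gene CST3 by 1.47 ± 0.31 (limma adjusted p of 0.000249 to 0.00164). CTSV, a cathepsin of keratinocytes in human skin, fell by 1.25 (SE 0.16, limma adjusted p = 6.76e-06). Of the ADAM and ADAMTS proteases, relatives of the metalloproteinases, 0 of 4 rose, and ADAMTS8 fell by 1.09 in early scar (SE 0.19, limma adjusted p = 0.000127).

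The matrix proteins that these enzymes cut or that surround them rose with the 4 genes. All 14 of 14 measured were called higher in early scar, with a median difference of 2.81 against 0.11 over all features, and 7 of 14 in both mid and late scar. ASPN, a small leucine-rich proteoglycan of connective tissue, rose by 4.55 ± 0.51 in early scar, VCAN, a large proteoglycan of young matrix, by 3.20 ± 0.41, COL5A2, a chain of type V collagen, by 3.38 ± 0.46, and POSTN, the matricellular protein periostin, by 3.11 ± 0.44 (limma adjusted p of 1.5e-06 to 1.9e-05). In late scar ASPN was still higher by 2.24 ± 0.51 and POSTN by 2.0 ± 0.44.

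Of 13 known inducers of these genes 6 rose and 2 fell in early scar, where 24.1% of all features were called higher and 14.7% lower. The same shares apply to the early counts of the lists above. For their mid and late counts, 22.1% and 26.3% of all features were called higher. The calls of IL6 (higher) and STAT3 (lower) were lost in 12 and 6 of 24 alternatives. TGFB3 rose by 2.0 ± 0.32, CTGF by 2.58 ± 0.46 and TGFB1, the growth factor that raises TIMP1 and collagen transcription in fibroblasts, by 1.33 ± 0.23. The cytokine gene IL1A fell by 0.74 (SE 0.13). Their limma adjusted p ran from 7.18e-05 to 0.000187.

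**Figure D5:**
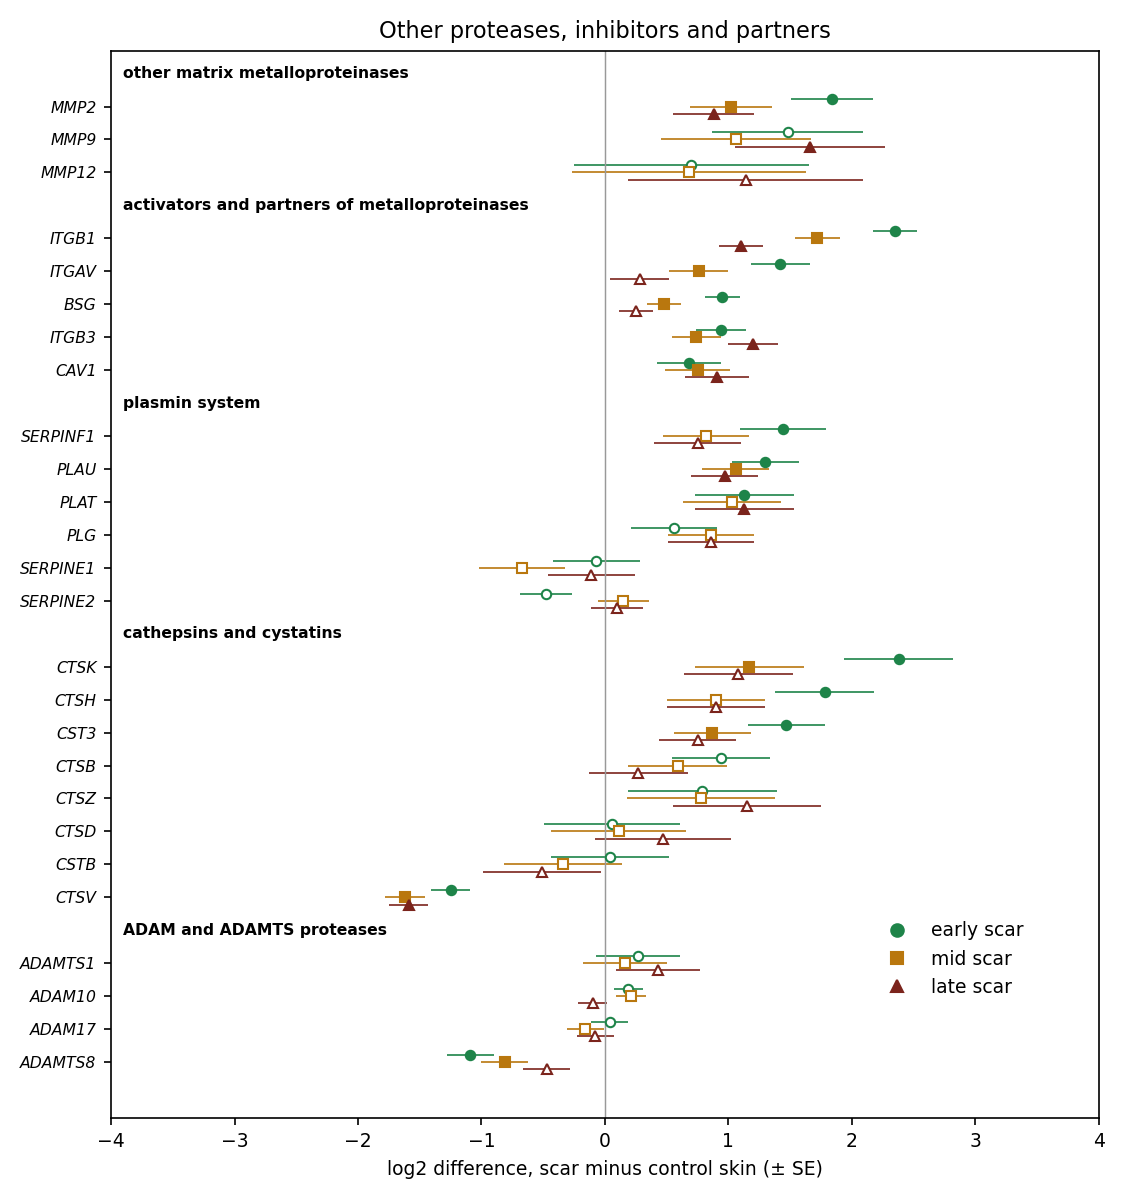
Fitted log2 difference of scar minus control skin with its SE (horizontal axis) for measured genes of 5 lists of proteases, inhibitors and partners, in early (green circles), mid (ochre squares) and late scar (red triangles); filled points passed an adjusted p of 0.05. ITGB1 and CTSK lie farthest to the right in early scar (2.35 and 2.38) and CTSV farthest to the left (-1.25).

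The genes whose levels followed each member most closely were looked up among 2645 features with a symbol, over 27 or 28 arrays, by Pearson's r. For MMP14 they were CDH11, a cadherin of mesenchymal cells (r = 0.97), OLFML2B (0.96), TIMP2 (0.96), SLC22A17 (0.95) and LGALS1, which encodes galectin-1 (0.95). For MMP11 they were SHAS2 (0.95), MMP14 (0.94), PHACTR3, C1QTNF3 and SLC22A17 (0.94 each). TIMP2 was followed by MMP14 (0.96), LGALS1 (0.94), BSG (0.93), P4HA1, which encodes a subunit of collagen prolyl hydroxylase (0.93), and NPC2 (0.92).

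TIMP1 had another set. Its closest were IFI30, a lysosomal thiol reductase of antigen-presenting cells (0.95), NPC2, a lysosomal cholesterol-binding protein (0.93), the lysosomal enzymes GALNS (0.91) and CTSA (0.89), and RSC1A1 (0.89). NPC2 alone was among the closest genes of both inhibitors, and no gene was shared between TIMP1 and either protease. All these genes were higher in early scar, IFI30 by 2.86 ± 0.30 and CDH11 by 2.97 ± 0.35, so that the correlations over all arrays contain the difference between phases.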

How the data were processed

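Expression was measured with 28 Agilent arrays of 2 colours, each holding 1 biopsy in the Cy5 channel and a common pig reference in the Cy3 channel per the labels, with no dye swap. The arrays lay on 7 slides of 4. Agilent Feature Extraction 10.7.1.1 read the scans, per the file headers, and its deposited output holds spot and background medians as linear intensity and a Cy5 to Cy3 ratio on a log10 scale, which was not used. A value table of log2 ratios that the authors deposited served as an alternative; its values match the program's own background-subtracted and dye-normalised signals to within 0.001 for nearly all probes, and other steps were not given in the sources used here.

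Local backgrounds were capped at the 99th percentile of their array and channel and removed by normexp (offset 50). Loess normalisation within arrays used limma 3.58.1 (R 4.3.3). Spots that the scanner program marked as outliers were left missing. A probe was kept if well above background in Cy5 on at least 4 arrays (24510 of 43603). Names came from RefSeq accessions (6924 probes), and the brightest probe stood for a gene. A limma model of 11 group means, blocked by animal, gave 17 comparisons, with Benjamini-Hochberg adjustment over 18765 features and a threshold of 0.05. The model was tested on simulated data.

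The same 2 animals gave every group, which is the pairing in the model. Their difference correlated between pairs of groups with a median r of 0.02 (-0.35 to 0.55, 55 pairs). The alternatives were another background correction, centring, filter, probe rule, slide block and choice of arrays, and the authors' table.

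The 4 genes, the lists and the comparisons were chosen with earlier results of these data known. Beside the 4 genes, the text names up to 4 called genes of each list by lowest p, the 5 features closest to each gene by correlation, and the other metalloproteinases with probes. A number in the sample titles lacks a stated unit and was left aside. The number of arrays limits the precision.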

Additional observations from a re-analysis of the deposited data

Results flagged for a closer look

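The hyper minus hypo difference of TIMP2 changed between mid and late scar by 1.7 ± 0.42 log2 units (limma adjusted p = 0.0192), by a test of the change itself that was added after the values had been seen. The hyper minus hypo difference was 0.84 ± 0.30 in late and -0.86 ± 0.30 in mid scar, and neither passed alone. The change missed the threshold without the pressure hyper (1.38, adjusted p = 0.0772) or the pressure hypo mid biopsy of animal 49 (1.47, 0.0724), without the mid sham hypo (1.52, 0.0526) or the late sham hypo biopsy of animal 50 (1.59, 0.0508), and without the late sham hyper biopsy of animal 49 (1.58, 0.0634). It was 1.42 (limma adjusted p = 0.112) when the pressure hyper mid biopsy with the highest muscle markers of its phase and the 2 arrays with the fewest detected probes were left out. By Dixon's ratio, no biopsy stood apart in the groups of 4 (control skin, early hyper and early hypo scar) for any of the 4 genes; TIMP1 in early hypo scar had 3 values and was not tested.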

How the results depend on the processing

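Each result was recomputed under 16 alternatives and with each array left out in turn. The early differences of the 4 genes from control skin kept their direction and call wherever they were tested (MMP14 had no value in animal 49 alone), at 3.31 to 4.09 for MMP14, 1.76 to 4.05 for MMP11, 1.48 to 2.12 for TIMP1 and 1.41 to 2.4 for TIMP2 over the alternatives; the late ones and the pigmentation change depended most on the setting, and the causes were not tested. With median centring in place of loess, TIMP1 was 0.79 and TIMP2 0.52 in mid scar, MMP14 was 0.33, TIMP1 -0.04 and TIMP2 -0.10 in late scar, ITGB3 was -0.14 in mid and -0.22 in late scar, and CAV1 (-0.14), JUN (-0.15) and MMP2 (-0.18) also changed sign in late scar. Of the 4 genes 2 then passed in mid and 0 in late scar, and 3 in each of late hyper against hypo scar and its change from mid scar. Without the cap on the background, MMP11 was 0.89 and TIMP2 0.62 in mid and TIMP2 0.38 in late scar, with 2 genes called in mid scar and 0 in mid or late against early sham scar and in the pigmentation change. In the authors' table late MMP11 was 1.49, late TIMP2 0.67 and the early protease minus inhibitor balance 1.86. With Cy5 alone late TIMP1 was 0.99 and TIMP2 0.66, with 1 gene called. Late TIMP2 was 0.68 with no filter and missed the threshold (adjusted p = 0.0678), and late MMP11 passed at 0.95 with slide as a fixed block, where 1 gene was called in late hyper against hypo scar. The other TIMP1 probes gave 0.60 and 0.63 in late scar, and 2.03 and 1.64 in the pigmentation change, where both passed.

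With 1 animal alone each mid and late group held 1 biopsy, so p values of these fits take no spread from those groups. In animal 49 alone late TIMP2 was 0.49 against control skin. In that animal, hyper minus hypo in mid scar was -1.43 for MMP11, -1.57 for TIMP1 and -1.26 for TIMP2. In late scar it was 1.26 for TIMP1. Pressure minus sham in its late scar was -1.07 for TIMP1 and -1.44 for TIMP2. In animal 50 alone mid MMP11 was 1.33 and late TIMP2 0.86, with 0 genes called in mid sham and 1 in late sham against early sham scar and 0 in the pigmentation change. In sham biopsies alone mid MMP11 was 1.0. Without 3 arrays chosen after seeing the data (mid pressure hyper of animal 49, late sham hypo and late pressure hypo of animal 50), late TIMP2 was 0.65, with 1 gene called in late scar and 0 in the pigmentation change. That change had 2 genes called with the filter on all arrays, the mean of all probes, slide as a random block (correlation 0.06) or no replicate block. Without the replicate block (the animal), its TIMP1 value stayed 1.54 and passed (limma adjusted p = 0.0442), and no other call of the 4 genes changed.

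With 1 array left out, mid MMP11 was 0.96 to 1.45, late MMP14 1.26 to 1.74, late TIMP1 0.79 to 1.20 and late TIMP2 0.54 to 0.78. The number of the 4 genes called was 0 to 3 in late scar, 0 to 3 in mid sham and 1 to 3 in late sham against early sham scar, 0 to 1 in late hyper against hypo scar (1 without the late sham hyper biopsy of animal 50) and 0 to 4 in the pigmentation change. Values that missed the threshold in both settings changed sign in 94 cases. Over these fits and the other alternatives together, the matrix list had 12 to 14 genes called higher in early and 1 to 10 in late scar. The number of arrays and the dim MMP11 signal in control skin limit these values.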
